A study of Culex quinquefasciatus with 20 samples.

Results

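*CYP314A1* (CPIJ001380) is the cytochrome P450 gene of *Culex quinquefasciatus* whose counterpart in *Drosophila*, *shade*, encodes the ecdysone 20-hydroxylase. It is 1 of the 19793 genes in the count tables, and its expression is described here across 20 RNA-seq libraries, 5 in each of the MR, MS, WI and CO groups. The gene was chosen by its measured fold changes in these same libraries, since the supplementary lists of the study hold it as a differentially expressed P450 in both WI versus CO and MR versus MS. Its levels and fold changes are therefore given as a description, without a test.

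Each library was made from the bodies, without a leg taken for species identification, of a pool of 10 females, all sampled or exposed when 3 days old. The MR and MS females came from field-collected *Cx. quinquefasciatus* and were exposed in bottle bioassays to malathion, an organophosphate insecticide, at 400 µg per bottle over 120 min. MR females survived and were kept for a further 24 h. MS females were taken at the end of the exposure, as knocked down by the labels and as dead by the methods. The 2 groups thus differ in the time of sampling, and as far as the methods say in being alive or dead, as well as in their response. WI females were reared from field-collected eggs and CO females came from the Sebring laboratory strain, which is susceptible to malathion, and neither group was exposed. The labels call the 5 pools of a group biological replicates and the methods call them technical ones, so errors and p-values below measure the spread between pools. In RNA from nearly whole females, fewer cells of one kind and less RNA per cell cannot be told apart, and the labelled tissue, total tissue, was not checked by defining markers.

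Ecdysteroids are the steroid hormones of insects. They are made from dietary sterols by a chain of P450 enzymes, and CYP314A1 carries out the last step, in which ecdysone becomes the active hormone 20-hydroxyecdysone, in *Drosophila* in peripheral tissues such as the fat body. In larvae the hormone drives moulting and metamorphosis, and in adult female mosquitoes it is known for its part in yolk synthesis and egg maturation after a blood meal. The sources used here pair no sequence or genome position with the identifier CPIJ001380, and none is given.

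*CYP314A1* was counted in each of the 20 libraries. The MR libraries held 351, 316, 359, 427 and 557 counts (replicates 1 to 5), and the MS libraries 188, 78, 147, 131 and 192 counts. The WI libraries held 1153, 1168, 1005, 1374 and 676 counts, and the CO libraries 2320, 2512, 2739, 1841 and 3185 counts. Every CO library lay above every WI library, every WI library above every MR library and every MR library above every MS library. How many other genes had this order in raw counts was not computed. Library totals ran only from 143972261 to 189723320 counts. The lowest value, 78 counts in MS replicate 2, has a 95% exact Poisson interval of 61.7 to 97.3, which covers counting error only, so that counting error was smaller than the distance of this library from the nearest MR library.

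**Figure D1:**
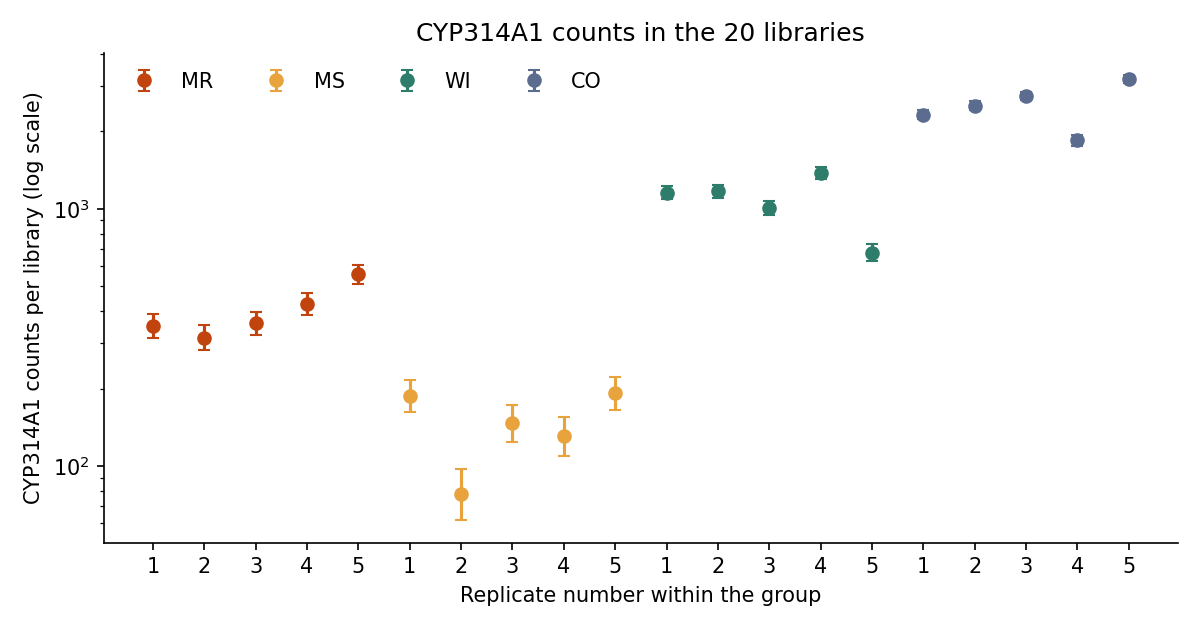
*CYP314A1* counts (log scale) in the 5 libraries of the MR, MS, WI and CO groups by replicate number, with 95% exact Poisson intervals for counting error. The MS libraries lie between 78 and 192 counts, below the MR libraries from 316 to 557, the WI libraries from 676 to 1374 and the CO libraries from 1841 to 3185.

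After scaling by TMM, edgeR's trimmed mean of M-values, the level was given in counts per 1000000 (CPM). It was 2.15, 1.72, 2.14, 2.53 and 3.18 CPM in the MR libraries, and 1.21, 0.934, 1.24, 1.03 and 1.85 CPM in the MS libraries. The means were 2.35 ± 0.549 CPM in MR and 1.25 ± 0.356 CPM in MS (SD, n = 5 each). Of the MR libraries 4 lay above all MS libraries, and MR replicate 2 (1.72 CPM) lay below MS replicate 5 (1.85 CPM). The level was 5.10, 7.84, 4.86, 8.47 and 4.83 CPM in the WI libraries, and 8.37, 12.9, 11.3, 13.7 and 13.9 CPM in the CO libraries. The means were 6.22 ± 1.78 CPM in WI and 12.0 ± 2.28 CPM in CO (SD, n = 5 each). Of the WI libraries 4 lay below all CO libraries, and WI replicate 4 (8.47 CPM) was just above CO replicate 1 (8.37 CPM).

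The order of the means was thus MS, MR, WI and CO from the lowest to the highest. Only the neighbours MR and WI were separated on this scale, with 3.18 CPM in the highest MR library and 4.83 CPM in the lowest WI library. The MS and MR libraries overlapped in 1 library of each group, and so did the WI and CO libraries. The mean of MS was 0.104 times that of CO, and 485 of the 17499 genes that passed the filter on low counts (2.77%) had a ratio as low or lower. The order of the 4 means was shared by 2293 of the tested genes (13.1%). In 3 genes (0.0171%) all 4 groups stood apart in this order without overlap, and *CYP314A1* was not one of them.

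Between groups, the fitted log2 fold change of *CYP314A1* was -0.95 (SE 0.24) for WI over CO and 0.90 (SE 0.25) for MR over MS, with all 20 libraries in one edgeR fit. Unexposed field females thus had 0.517 times the mean level of the colony, whereas MR females had 1.87 times the mean level of MS females. Among all tested genes, 11.8% had a fold change below that of *CYP314A1* in WI over CO and 88.3% in MR over MS. Genes with lower expression in WI at an FDR under 0.05 made up 4.15% of those tested, and genes with higher expression in MR 2.76%. Genes of either direction made up 10.4% for WI versus CO and 6.94% for MR versus MS. For WI versus CO these were 1828 genes, and 3164 when the replicate number entered as a block. That pairing of WI and CO libraries was read from the counts and is not given by the labels. The combination of lower expression in WI than in CO and higher expression in MR than in MS was called in 30 of the 17499 genes (0.171%). Because the choice of *CYP314A1* used both of these comparisons, nothing is read from its place among them.

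Both malathion-exposed groups had lower levels of *CYP314A1* than the unexposed field females. The log2 fold change was -1.41 (SE 0.25) for MR over WI and -2.31 (SE 0.26) for MS over WI, and these comparisons share the WI libraries. The mean of MR was 0.377 times that of WI, and the mean of MS 0.201 times. All 5 MR libraries and all 5 MS libraries lay below all WI libraries. A fall without overlap was found in 5.63% of the tested genes for MR versus WI and in 9.75% for MS versus WI, and 3.95% and 3.65% of the genes had a lower fold change than *CYP314A1*. Exposed and unexposed females also differed in handling, and MR females were sampled 24 h after the exposure. These differences in procedure, the state of the MS females at sampling and the exposure itself cannot be told apart.

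The size of these differences depended on how the libraries were scaled. The TMM factors were 1.01 to 1.22 in MR, 0.563 to 1.08 in MS, 0.807 to 1.34 in WI and 0.841 to 1.72 in CO. The pair of most counted genes took 19.4% ± 5.64 of the counts in MR, 25.2% ± 8.37 in MS, 16.2% ± 4.97 in WI and 8.83% ± 3.22 in CO (SD, n = 5 each). That share moved opposite to *CYP314A1*, and its part in the result was not tested other than by a fit without the pair, chosen after seeing the data, in which the log2 fold changes were -0.97 for WI over CO, 0.86 for MR over MS, -1.41 for MR over WI and -2.27 for MS over WI. By library size alone, *CYP314A1* was at 2.58 ± 0.754 CPM in MR, 0.908 ± 0.315 CPM in MS, 6.27 ± 1.30 CPM in WI and 15.2 ± 2.82 CPM in CO (SD, n = 5 each). On this scale all 4 groups stood apart, with the gap between the closest libraries smallest between MR (3.87 CPM) and WI (4.38 CPM). The order without overlap was shared by 12 tested genes in all (0.0686%), among them *CYP6BY2*, a P450 of the lists whose role is not given in the sources used here. By library size alone the log2 fold change of *CYP314A1* was 1.51 for MR over MS and -2.79 for MS over WI, but the median of all genes then moved to 0.62 and -0.58. Relative to that median *CYP314A1* was at 0.89 and -2.21, close to 0.86 and -2.24 with TMM.

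A comparison within each library needs no scaling. *RpL8* (CPIJ000162) encodes the ribosomal protein L8 and was the reference gene of the study's qRT-PCR. Per 1000000 *RpL8* counts, *CYP314A1* had 1137 ± 156 counts in MR, 665 ± 208 in MS, 1911 ± 586 in WI and 3874 ± 1190 in CO (SD, n = 5 each). The order of the means was as before, and all 5 MR libraries (1008 to 1392) lay above all MS libraries (446 to 869). How many other genes separated MR from MS on this scale was not computed. The WI libraries (1096 to 2472) now overlapped with MR through WI replicate 5, and with the CO libraries (2101 to 5059) through CO replicate 4. The ratio of the means was 0.595 for MR over WI and 0.348 for MS over WI, nearer to 1 than in CPM. *RpL8* itself had a log2 fold change of -0.74 for MR over WI (FDR 0.126) and -0.82 for MS over WI (FDR 0.0457, edgeR), of which only the second passed. For WI over CO it was at -0.05 (FDR 0.943) and for MR over MS at 0.08 (FDR 0.916, edgeR).

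The place of *CYP314A1* among the genes of a library gave the same order. In MR libraries 35.8% to 42.5% of the tested genes had a lower CPM than *CYP314A1* (mean 38.7%), and in MS libraries 30.2% to 36.6% (mean 32.2%). In WI libraries the share was 50.9% to 61.3% (mean 55.1%), and in CO libraries 60.6% to 71.0% (mean 67.8%). The gene thus lay in the upper part of the range in the colony, near its middle in unexposed field females and in its lower part in both exposed groups. These CPM values are not divided by gene length, so that the place also depends on the length of the gene.

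**Figure D2:**
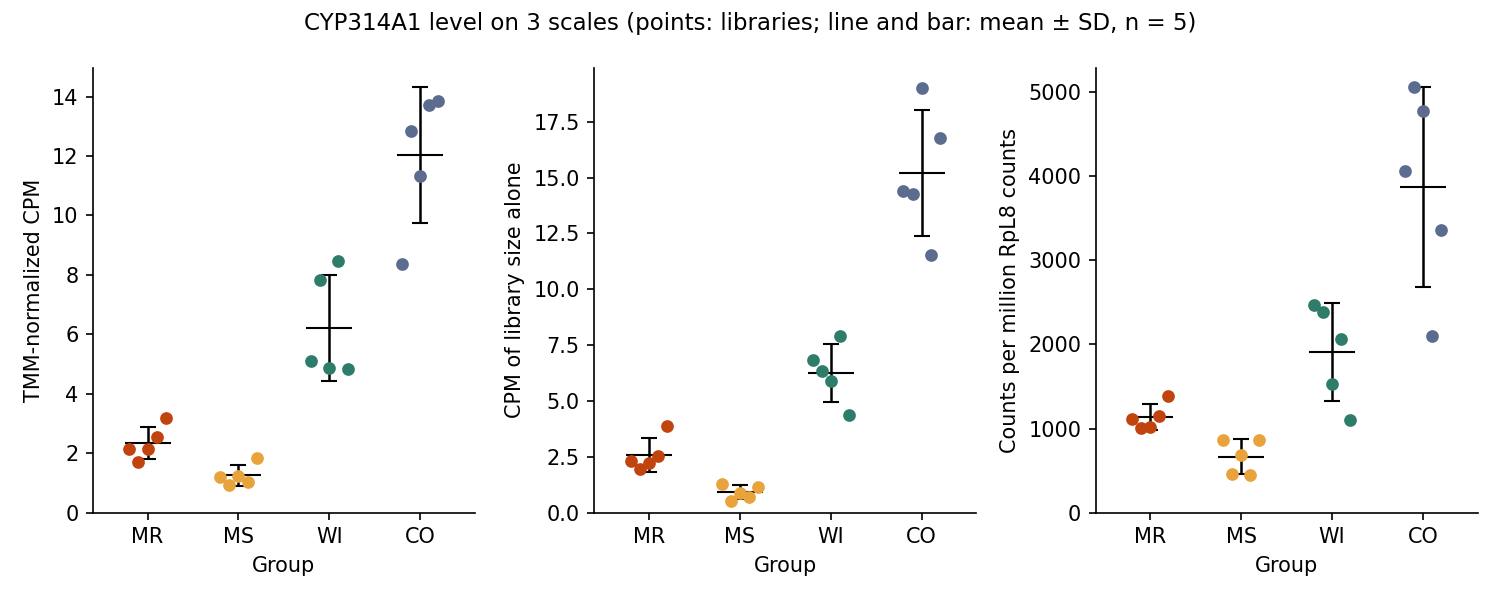
*CYP314A1* in each library of MR, MS, WI and CO as TMM-normalized CPM (left), CPM of library size alone (middle) and counts per 1000000 *RpL8* counts (right); points are libraries, lines and bars the mean ± SD of 5. The means follow one order on all 3 scales (1.25, 2.35, 6.22 and 12.0 CPM in MS, MR, WI and CO with TMM), and which neighbours overlap depends on the scale.

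The spread of *CYP314A1* between pools of one group was smaller than that of most genes of similar level. The SD of log2 CPM was 0.33 in MR, 0.37 in MS, 0.40 in WI and 0.30 in CO, or 0.35 pooled over the groups. Among 1944 genes with a mean log2 CPM within 0.5 of that of *CYP314A1* the median pooled SD was 0.51, and 85.1% of them had a larger SD than *CYP314A1*. A small spread favours a call, and *CYP314A1* was listed by calls from these libraries, so its place is given as a description. No single library carried the differences, which is also given as a description. When each library of a pair of groups was left out in turn, the log2 fold change stayed between -1.09 and -0.87 for WI over CO, between 0.77 and 1.05 for MR over MS, between -1.54 and -1.27 for MR over WI and between -2.46 and -2.17 for MS over WI.

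The supplementary lists of the study were chosen on WI versus CO and MR versus MS, so calls there are not independent evidence. The lists name 3 other P450 genes of ecdysteroid metabolism, all of which passed the filter. In *Drosophila* their counterparts are *spook* for *CYP307A1*, which acts early in the synthesis, *disembodied* for *CYP302A1*, which acts shortly before ecdysone is formed, and *Cyp18a1*, which inactivates the hormone. Of these 3 genes, 1 was higher and none lower in WI than in CO, 1 was lower and none higher in MR than in MS, none passed for MR versus WI (0 at an unadjusted p under 0.05, and 0 with DESeq2) and 1 was higher in MS than in WI. With DESeq2 and with the replicate block 1 was also higher in MR than in MS, and 1 and 2 were also lower in MS than in WI. Over all tested genes, 785 and 1034 were then higher in MR than in MS, and 2243 and 2480 lower in MS than in WI. With scaling by library size alone, none passed for WI versus CO, 2 were higher in MR than in MS and 2 were lower in MS than in WI. On that scale 1843 of all 17499 tested genes were higher in MR than in MS and 3752 were lower in MS than in WI. The median of all 4 genes, *CYP314A1* included, was -0.06 for WI over CO, 0.63 for MR over MS, -0.22 for MR over WI and -1.06 for MS over WI, against -0.02, 0.04, -0.01 and -0.07 over all tested genes. Of all tested genes, 6.3% were higher and 4.15% lower for WI versus CO, 2.76% and 4.18% for MR versus MS, 4.95% and 3.99% for MR versus WI, and 12.3% and 11% for MS versus WI, which sum to 8.94% for MR versus WI and 23.3% for MS versus WI. *CYP314A1* had the lowest log2 fold change of the 4 genes for MR over WI and for MS over WI, given as a description because its choice used these libraries.

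*CYP302A1* (CPIJ010826) was at 6.50, 7.41, 7.98, 7.77 and 10.1 CPM in MR and at 6.14, 6.94, 4.09, 7.65 and 6.07 CPM in MS. It was at 7.48, 11.5, 6.84, 10.9 and 8.88 CPM in WI and at 3.53, 3.01, 3.81, 7.44 and 5.19 CPM in CO. Of the WI libraries 4 lay above all CO libraries, the reverse of *CYP314A1*. The log2 fold change for WI over CO was 0.99 (SE 0.25, FDR 0.0137, edgeR), and the study chose this gene on that comparison, so the call is not independent evidence. The FDR was 0.0917 by library size alone and 0.0914 in a fit of only WI and CO. For MR over MS it was 0.37 (FDR 0.437), for MR over WI -0.19 (FDR 0.732) and for MS over WI -0.56 (FDR 0.108, edgeR). By library size alone it passed for MR over MS (0.97, FDR 0.0214) and for MS over WI (-1.03, FDR 0.00609), and with the replicate block for MS over WI (-0.56, FDR 0.0474).

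Within a library, the log2 ratio of *CYP314A1* to *CYP302A1* counts was -1.78 ± 0.22 in MR, -2.31 ± 0.59 in MS, -0.57 ± 0.19 in WI and 1.44 ± 0.44 in CO (SD, n = 5 each, 0.5 added to each count). The WI libraries, at -0.88 to -0.36, lay below all CO libraries, at 0.88 to 2.09. The MR libraries, at -2.11 to -1.59, and the MS libraries, at -2.89 to -1.71, lay below all WI libraries and overlapped each other. Since the lengths of the genes were not used, only the differences between groups can be read from these ratios. How many other gene pairs separated the groups in this way was not computed. The study listed both genes for WI versus CO, where their fold changes had opposite signs, so the distance between WI and CO in this ratio follows from the choice of the genes and is not a result.

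*CYP307A1* (CPIJ006322) was low in all groups, at 0.892 to 1.81 CPM in MR, 0.0120 to 0.904 CPM in MS, 0.420 to 1.23 CPM in WI and 0.276 to 1.88 CPM in CO. MS replicate 2 held 1 count of it and MS replicate 5 held 94. Its log2 fold change for MR over MS was 2.03 (SE 0.67, FDR 0.0705, edgeR), in the direction of *CYP314A1* but short of the threshold, and the study had listed the gene for this comparison. The FDR ranged from 0.0111 without MS replicate 5 to 0.174 over the alternatives. It did not pass for WI over CO (-0.08, FDR 0.959), for MR over WI (0.46, FDR 0.758) or for MS over WI (-1.57, FDR 0.0912, edgeR), and the FDR of the last ranged from 0.00888 without MS replicate 5 to 0.198.

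*CYP18A1* (CPIJ001038) was at 1.52, 1.45, 1.70, 1.26 and 0.497 CPM in MR and at 1.91, 4.19, 2.92, 4.04 and 4.56 CPM in MS. All MR libraries lay below all MS libraries, as in 6.86% of the tested genes, opposite to *CYP314A1* in the direction of the difference. It was at 1.51 ± 0.632 CPM in WI and 1.56 ± 0.412 CPM in CO (SD, n = 5 each), and 4 of 5 MS libraries lay above all WI libraries. The log2 fold change was -1.46 for MR over MS (SE 0.37, FDR 0.0187), a comparison for which the study listed the gene, and 1.22 for MS over WI (SE 0.37, FDR 0.0193, edgeR). Library size alone ended both calls (FDR 0.19 and 0.36), and the second was also lost without WI replicate 5 (FDR 0.0512). It did not pass for WI over CO (-0.04, FDR 0.964) or for MR over WI (-0.24, FDR 0.787, edgeR).

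The ratio of the gene of the activating enzyme to that of the inactivating one was also computed within each library. The study listed both genes for MR versus MS, where their fold changes had opposite signs, so the difference between MR and MS in this ratio follows from their choice. The log2 ratio of *CYP314A1* to *CYP18A1* counts was 0.95 ± 1.00 in MR, -1.46 ± 0.61 in MS, 2.13 ± 0.80 in WI and 2.97 ± 0.59 in CO (SD, n = 5 each). The highest MS library, at -0.66, lay below the lowest MR library at 0.25. It also lay below the lowest WI library at 1.21 and the lowest CO library at 2.41. These distances rest on the MS libraries on which both genes were chosen, so nothing is read from them. How many other gene pairs set MS apart in this way was not computed. The MR and WI libraries overlapped because MR replicate 5, with 87 counts of *CYP18A1*, reached 2.67, and the WI and CO libraries overlapped too. The log2 ratio to *CYP307A1* was 0.93 ± 0.56 in MR, 2.91 ± 1.77 in MS, 2.86 ± 0.86 in WI and 3.87 ± 1.23 in CO (SD, n = 5 each), with MR, not MS, as the lowest group.

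**Figure D3:**
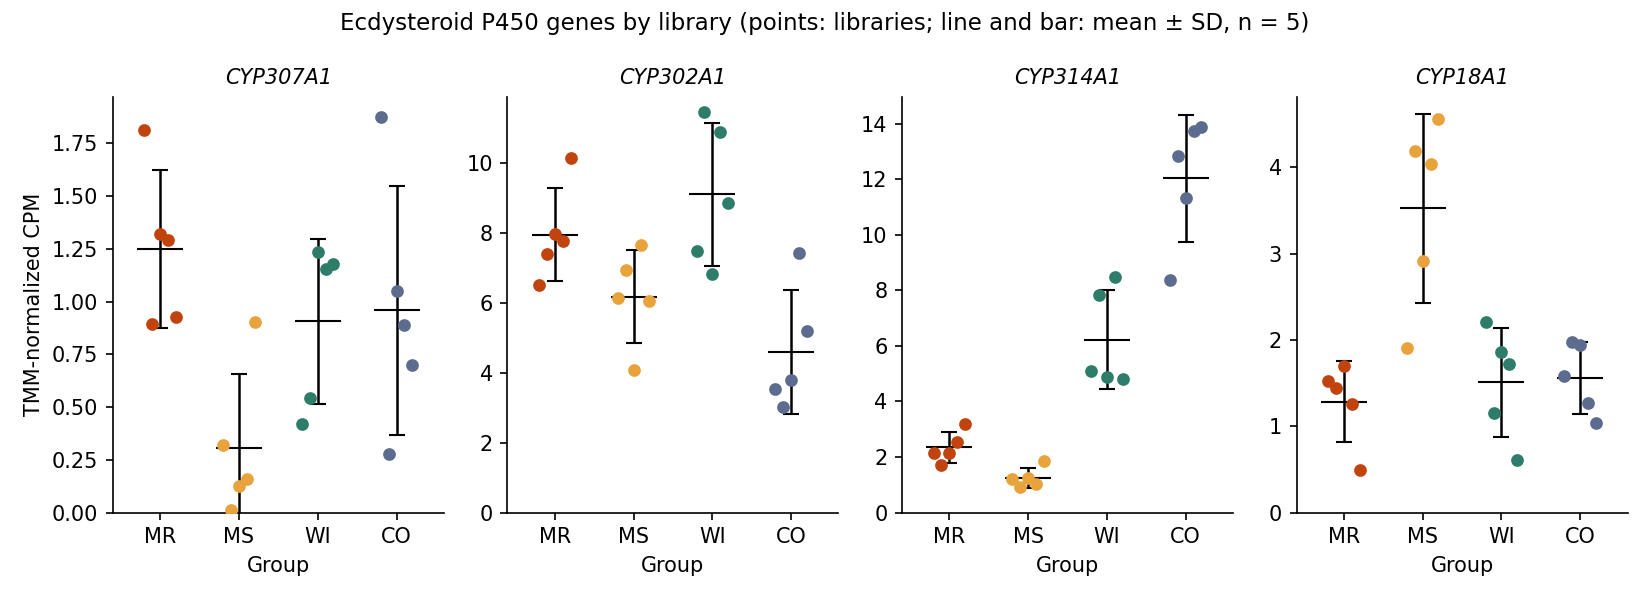
TMM-normalized CPM of *CYP307A1*, *CYP302A1*, *CYP314A1* and *CYP18A1* in each library of MR, MS, WI and CO; points are libraries, lines and bars the mean ± SD of 5, and the MS bar of *CYP307A1* is cut at 0. Each panel has its own axis, and *CYP314A1* is the gene in which both exposed groups (means 2.35 CPM in MR and 1.25 CPM in MS) lie below WI (6.22 CPM) and WI below CO (12.0 CPM).

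Genes annotated to the response to hormones were also examined beside *CYP314A1*. The pathway tables of the study name 4 of them, without gene names, among its genes that differed between MR and MS. This list is therefore not independent evidence for that comparison, and the same libraries enter MR versus WI and MS versus WI. None of the 4 was called for WI versus CO, where *CYP314A1* had its lower level in WI (0 at an unadjusted p under 0.05 in edgeR, and 0 called with DESeq2). For MR versus MS 3 were lower in MR and none higher, beside 4.18% lower and 2.76% higher of all tested genes. With DESeq2 or the replicate block 1 was also higher, beside 785 or 1034 higher of all tested genes. For MR versus WI 1 was lower and none higher, beside 3.99% and 4.95% of all tested genes. For MS versus WI 2 were higher and 1 lower in MS, beside 12.3% and 11% of all tested genes. The median log2 fold change was -0.01 for WI over CO, -0.80 for MR over MS, -0.04 for MR over WI and 0.59 for MS over WI, against -0.02, 0.04, -0.01 and -0.07 over all tested genes.

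CPIJ005270 was the hormone response gene with the direction of *CYP314A1* among exposed females, at 5.50 CPM in MR, 2.83 CPM in MS, 7.18 CPM in WI and 7.21 CPM in CO on average. Its log2 fold change was 0.96 for MR over MS (FDR 0.0561) and -1.35 for MS over WI (FDR 0.00235, edgeR). All 5 MS libraries lay below all WI libraries, as in 9.75% of the tested genes. They also lay below all MR libraries, for which the share of all genes was not computed. The first FDR ranged from 0.00515 to 0.15 over the alternatives. The other 3 moved opposite to *CYP314A1* between MR and MS, with log2 fold changes of -0.84 for CPIJ008822 (FDR 0.011), -0.84 for CPIJ012487 (FDR 0.00426) and -0.76 for CPIJ016024 (FDR 0.00633, edgeR). CPIJ008822 was also higher in MS than in WI (1.32, FDR 3.84e-05), and so was CPIJ016024 (1.05, FDR 6.16e-05), whereas CPIJ012487 was lower in MR than in WI (-0.72, FDR 0.00994, edgeR). The 3 calls for MR versus MS were lost by library size alone (FDR 0.505 to 0.669), as were those of CPIJ016024 for MS versus WI (FDR 0.181) and of CPIJ012487 for MR versus WI (FDR 0.243).

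The 3 genes annotated to oogenesis in the same tables had the order of means that *CYP314A1* had. CPIJ007710 was at 10.9 ± 2.68 CPM in MR, 1.46 ± 0.947 CPM in MS, 17.5 ± 9.66 CPM in WI and 42.0 ± 28.9 CPM in CO (SD, n = 5 each). CPIJ007711 averaged 20.4 CPM in MR, 3.00 CPM in MS, 34.8 CPM in WI and 81.9 CPM in CO, and CPIJ010739 averaged 49.5, 11.2, 95.5 and 263 CPM. All 3 were lower in MS than in WI, with log2 fold changes of -3.57, -3.53 and -3.09 (FDR 0.00144, 0.00213 and 0.0114, edgeR). Of all tested genes 11% were called lower there. The same MS libraries enter MR versus MS, so these calls are not independent of the choice of the genes. For MR over MS, on which the study chose these genes, CPIJ007710 (2.89, FDR 0.0187) and CPIJ007711 (2.76, FDR 0.029, edgeR) passed. Of all tested genes 2.76% were called higher there. CPIJ010739 did not pass (2.14, FDR 0.128, edgeR), except with the replicate block and in a fit of only MR and MS (FDR 0.0366 and 0.00185). None passed for WI over CO (-1.26, -1.24 and -1.46) or for MR over WI (-0.69, -0.77 and -0.95), in either case with 0 at an unadjusted p under 0.05 and 0 called with DESeq2. The medians were -1.26 for WI over CO, 2.76 for MR over MS, -0.77 for MR over WI and -3.53 for MS over WI, against -0.02, 0.04, -0.01 and -0.07 over all tested genes.

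The oogenesis genes differed from *CYP314A1* in their spread between pools. CPIJ007710 was at 0.542 CPM in CO replicate 2 and at 29.8 to 73.0 CPM in the other CO libraries, and CPIJ010739 was at 0.455 CPM in CO replicate 2 and at 205 to 447 CPM in the others. *CYP314A1* was at 12.9 CPM in the same library, within the range of the other CO libraries. Without CO replicate 2 the 3 oogenesis genes passed for WI over CO, lower in WI (FDR 0.0267, 0.0224 and 0.0154, edgeR). Over all tested genes the number called in either direction then rose from 1828 to 2996. *CYP314A1* had a log2 fold change of -0.93 in that fit, in place of -0.95. For MR over MS the call of CPIJ007710 was lost without MS replicate 2 or 5 (FDR 0.055 and 0.0508), and that of CPIJ007711 without MR replicate 3, 4 or 5 or MS replicate 2, 3, 4 or 5 (FDR 0.0531 to 0.0822). The part of ovarian tissue in the levels of *CYP314A1* was not tested.

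The study chose its lists on WI versus CO and MR versus MS, so calls of listed genes there are not independent evidence. MR versus WI and MS versus WI use the same libraries. *CYP314A1* belongs to the mitochondrial clan, whose enzymes work inside the mitochondrion, and the lists name 5 other members. For WI over CO 4 of these were called higher and none lower in WI, beside 6.3% higher and 4.15% lower of all tested genes. For MR over MS 1 of the 5 was called higher and none lower, beside 2.76% and 4.18%. The value of *CYP314A1* was the lowest of the 6 for WI over CO and the highest for MR over MS, and since these comparisons chose it, nothing is read from either place. For MR over WI none of the 5 was called (1 at an unadjusted p under 0.05 in edgeR, and 0 called with DESeq2), beside 4.95% higher and 3.99% lower of all tested genes. For MS over WI 1 was lower and none higher, beside 11% and 12.3%. *CYP314A1* had the lowest value of the clan for MR over WI and for MS over WI. These places use libraries that its choice also used, and nothing is read from them either. The median of the 6 genes was 0.86 for WI over CO, 0.38 for MR over MS, -0.22 for MR over WI and -0.40 for MS over WI. With scaling by library size alone 2 of the 5 were higher in WI than in CO, 3 higher in MR than in MS and 3 lower in MS than in WI. Of all 17499 tested genes, 696, 1843 and 3752 were then called in these directions.

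*CYP12F9* (CPIJ010231) was the clan member closest to *CYP314A1* in pattern, at 9.56 CPM in MR, 5.29 CPM in MS, 14.3 CPM in WI and 17.2 CPM in CO on average. Its log2 fold change was 0.85 for MR over MS (FDR 0.0149), where the study listed it, and -1.43 for MS over WI (FDR 3.34e-05, edgeR). The first call was lost without MS replicate 3 (FDR 0.0619). It did not pass for WI over CO (-0.27, FDR 0.451) or MR over WI (-0.58, FDR 0.0914, edgeR), where it passed only in a fit of only MR and WI (FDR 0.0296). *CYP12F13* (CPIJ010227) had the highest value of the clan for WI over CO, 2.24 (FDR 2.66e-06, edgeR), as a gene that the study listed for this comparison.

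The lists also name 8 P450s of the CYP2 clan, which holds *CYP307A1*, *CYP18A1* and other enzymes of insect development. As in the mitochondrial clan, these genes come from lists chosen on WI versus CO and MR versus MS, so their calls are not independent evidence. Of these, 3 were called higher and 1 lower in WI than in CO, 1 higher and 2 lower in MR than in MS, 1 higher and 1 lower in MR than in WI, and 3 higher and 2 lower in MS than in WI. The shares of all tested genes called higher and lower were 6.3% and 4.15% for WI versus CO, 2.76% and 4.18% for MR versus MS, 4.95% and 3.99% for MR versus WI, and 12.3% and 11% for MS versus WI. The medians of the CYP2 clan were 0.94, -0.37, -0.13 and -0.44 in that order, and by library size alone that for MR over MS was 0.23, with 2 genes higher and none lower. Over all 17499 tested genes the median was then 0.62, with 1843 genes higher and 117 lower. With the replicate block 5 were higher and 1 lower in WI than in CO. Of all 17499 tested genes, 1979 were then higher and 1185 lower. *CYP303A1* (CPIJ009170) had the lowest value for WI over CO, -1.95 (FDR 0.00757, edgeR), which was past that of *CYP314A1*, but was higher in MS than in WI by 2.66 (FDR 0.00019, edgeR), where *CYP314A1* was lower. The first of these FDRs was 0.0531 in a fit of only WI and CO. *CYP305A10* (CPIJ014942) had the highest value for WI over CO, 2.96 (FDR 0.0219), and like *CYP314A1* was higher in MR than in MS (3.35, FDR 0.016) and lower in MS than in WI (-3.77, FDR 0.00231, edgeR). The first of these calls was lost by library size alone, in a fit of only WI and CO and without WI replicate 5 or CO replicate 1 (FDR 0.0516 to 0.059). Both genes are on the list of the study for WI versus CO, and *CYP305A10* also on that for MR versus MS.

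Over the 60 P450s of the lists, *CYP314A1* ranked 10 from the lowest fold change for WI over CO, 49 for MR over MS, 8 for MR over WI and 7 for MS over WI. The median of the 60 genes was 0.99 for WI over CO, 0.15 for MR over MS, -0.31 for MR over WI and -0.52 for MS over WI, against -0.02, 0.04, -0.01 and -0.07 over all tested genes. Of the other 59, 38 were called higher and 8 lower in WI than in CO, and 10 higher and 7 lower in MR than in MS, in lists that the study chose on these libraries. Of all tested genes, 6.3% and 4.15% were called for WI versus CO and 2.76% and 4.18% for MR versus MS. The counts of listed P450s by library size alone were 23 and 8 for WI versus CO and 25 and 0 for MR versus MS. On that scale 696 and 942 of all 17499 tested genes were called for WI versus CO, and 1843 and 117 for MR versus MS. For MR versus WI 4 of the 59 were higher and 10 lower, beside 4.95% and 3.99% of all tested genes, and for MS versus WI 9 were higher and 22 lower, beside 12.3% and 11%. All ranks of *CYP314A1* are given as a description. Those for WI over CO and MR over MS come from the comparisons that chose it, and the others use the same libraries. The order of the group means of *CYP314A1* was found in 3 of the other listed P450s, which were *CYP6BY2*, *CYP12F9* and *CYP9M10-de1b*.

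The genes most like *CYP314A1* were sought by Pearson's r of log2 CPM over the 20 libraries, given as a description because the libraries of a group share their treatment. Of 17498 genes compared, 56 (0.32%) had an r above 0.9, and the median r was 0.003. CPIJ020318 had the highest r, 0.959, and averaged 57.1 CPM in MR, 28.7 CPM in MS, 198 CPM in WI and 368 CPM in CO. CPIJ016351 followed with 0.956, at 30.4 CPM in MR, 28.0 CPM in MS, 58.4 CPM in WI and 85.0 CPM in CO. The 10 genes with the highest r (0.934 to 0.959) have no name in the sources used here. By Spearman's rho 4 of these 10 stayed among the 10 highest. After the group means were subtracted none did, with r from -0.12 to 0.66 against a median of -0.004 over the genes compared. Their likeness to *CYP314A1* within groups thus varied, from CPIJ011725 (0.66, rank 23) and CPIJ020318 (0.61, rank 84) to CPIJ012753 (-0.12, rank 11050).

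Of the 93 other listed detoxification genes, *CYP9M10-de1b* (r 0.895), *CYP12F9* (0.849) and *CYP6BY2* (0.843) were most like *CYP314A1*. A glutathione S-transferase gene, CPIJ006160 (-0.910), *CYP304B4* (-0.891) and *CYP6P14* (-0.880) had the lowest r. Of the hormone genes, *CYP307A1* had an r of 0.45, *CYP302A1* of -0.19 and *CYP18A1* of -0.45 with *CYP314A1*, and *RpL8* had 0.689.

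**Figure D4:**
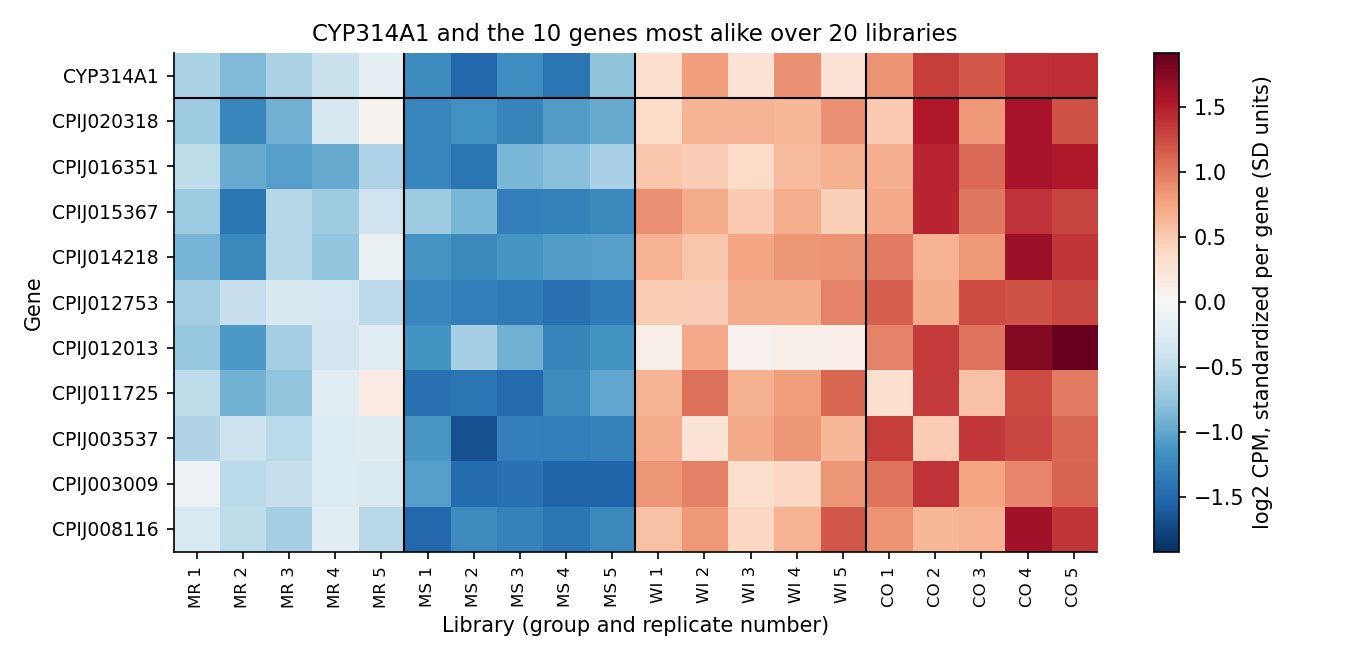
Log2 CPM of *CYP314A1* (top row) and of the 10 genes with the highest Pearson's r to it (0.959 to 0.934, from top to bottom), standardized per gene, in the 20 libraries of MR, MS, WI and CO; red is above and blue below the gene's mean over the libraries. In all rows the WI and CO libraries lie above the gene's mean and the MS libraries below it.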

How the data were processed

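Raw counts per gene, as deposited by the authors for 20 libraries, were used without the authors' normalization. Per the labels and methods, the reads were trimmed with Trim Galore 0.6.4, aligned with STAR 2.7.3a and counted with featureCounts 1.6.0, whereas the handling of strand and of multiply mapping reads is not stated there. The software was edgeR 4.0.16, run under R 4.3.3 with limma 3.58.1, and DESeq2 1.42.0 as an alternative. After filterByExpr (minimum count 10, minimum total 15; 17499 of 19793 genes), TMM scaling and one fit of all groups, contrasts were tested by edgeR's quasi-likelihood test and adjusted by Benjamini-Hochberg over the tested genes (FDR under 0.05). The SE is the log2 fold change divided by the square root of F. Log2 CPM used a prior count of 2. The fit was checked on simulated counts.

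The gene, the lists and the tests were chosen with earlier results of these data known. Named were *CYP314A1*, each ecdysteroid, hormone response and oogenesis gene and *RpL8*, at most 4 genes per comparison of other lists by extreme fold change, and the genes most like *CYP314A1*. Any other gene was named after its values were seen. Pairing was read from same-numbered libraries, which deviated together in WI and CO (r 0.168 to 0.465 across genes, all 5 over 0.1) but in 2, 4 and 3 of 5 pairs for MR with MS, MR with WI and MS with WI. Differently numbered WI and CO libraries reached an r of up to 0.262, above some of the same-numbered ones. No 2 libraries of a group agreed within sampling noise (chi-square per gene at least 143 over 40 pairs). Alternatives were RLE factors, library size alone, DESeq2, other filters, a replicate block, only the compared groups, and leaving out each library. The fold changes and p-values in the study's lists were not used, nor were its qRT-PCR and RNAi. Sequences and positions of *CYP314A1* were not used here.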

Additional observations from a re-analysis of the deposited data

Results flagged for a closer look

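In 60 groups of 5 libraries (15 genes in 4 groups), 3 had a library far from the others by Dixon's test, about the number that 1 in 20 gives by chance. The hormone response gene CPIJ005270 was at 2.11 CPM in CO replicate 4, against 7.68 CPM in the nearest CO library. *CYP12F9* was at 17.0 CPM in WI replicate 5, against 14.0 CPM in the nearest WI library, and at 27.0 CPM in CO replicate 4, against 16.2 CPM in the nearest CO library. No *CYP314A1* library stood apart in this way.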

How the results depend on the processing

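The log2 fold change of *CYP314A1* kept its direction under all alternatives in all 4 comparisons. Among the fits it moved by more than the spread between pools only by library size alone, to 1.51 for MR over MS and -2.79 for MS over WI. Per *RpL8* count the ratio of the means moved too, from 0.377 to 0.595 for MR over WI and from 0.201 to 0.348 for MS over WI. With the replicate block the log2 fold change was -0.94, 0.90, -1.42 and -2.32 for WI over CO, MR over MS, MR over WI and MS over WI. The number of genes called was more variable. For WI versus CO it was 2811 with DESeq2, 3164 with the replicate block, 612 in a fit of only WI and CO and 1223 to 2996 with a library left out (2996 without CO replicate 2). For MR versus MS it was 1960 by library size alone, 1864 with DESeq2, 2448 with the block, 3143 in a fit of only MR and MS and 717 to 1135 with a library left out (717 without MR replicate 3 and 766 without MR replicate 4). For MR versus WI it was 2653 with the block and 1068 to 1427 with a library left out, and for MS versus WI 3249 to 3836. By library size alone the share of higher genes was 42.5% in place of 60.3% for WI versus CO, 94.0% in place of 39.8% for MR versus MS and 19.2% in place of 52.8% for MS versus WI. Outside WI and CO the pairing of numbers was not borne out. Results with the block for the other comparisons, here and above, therefore rest on an unsupported pairing.

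The single genes that changed direction had not passed the threshold. For WI over CO these were *CYP307A1* with the block (0.081) and with a library left out (-0.32 to 0.33), *CYP18A1* (-0.22 to 0.16) and CPIJ008822 (-0.10 to 0.15) with a library left out, and CPIJ005270 with the block (0.060) and with a library left out (-0.24 to 0.098). By library size alone, CPIJ012487 was at -0.21 for WI over CO and -0.37 for MS over WI, and *CYP12F13* at 0.031 for MR over MS and -0.21 for MS over WI. The cause of these changes was not tested. With 5 pools per group, the spread between pools exceeded sampling noise on average over the genes. For low genes such as *CYP307A1* the parts of spread and depth were not separated, and their differences remain uncertain.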
